A study of Mus musculus with 2 samples.

Results

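Smooth muscle cells of the ureter wall squeeze urine towards the bladder, and the genes described here encode the machinery that does it. They were chosen by name for what they encode and not by their values: 36 genes for actin and myosin filaments, the proteins that anchor the filaments, and the membrane complexes that tie them to the matrix. All 36 were present among the 32589 gene IDs of the deposited count tables. RNA of single nuclei was sequenced from ureters of newborn mice (postnatal day 0). The DNp63cKO library came from 1 pool of 14 mice that carried Pax2-cre on one allele, floxed alleles of DNp63 (the ΔN form of p63, gene Trp63) on both, and the R26mTmG reporter on one. The control library came from 1 pool of 13 mice with the genotype label wt. Whether these carried Pax2-cre or the reporter is not said, so the pools may differ in more than the deletion. Pax2 is active in the nephric duct, whose outgrowth forms the ureter epithelium, whereas the muscle grows from the mesenchyme around it. With 1 library per pool there was no replicate, so no difference between the libraries was tested and every interval below covers counting error only.

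In a smooth muscle cell, thin filaments of actin slide along thick filaments of smooth muscle myosin. Contraction starts when calcium and calmodulin switch on myosin light chain kinase (Mylk), which phosphorylates the regulatory light chain (Myl9), and it ends when myosin phosphatase removes the phosphate. The filaments are anchored in dense bodies in the cytoplasm and in dense plaques at the membrane, where integrins, talin and vinculin link them to the matrix, and the dystrophin complex forms a further link. Many of these genes are switched on by serum response factor with its partner myocardin, which bind a short DNA element called the CArG box.

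The start regions of the members show how unevenly that element is spread. RefSeq windows from 250 bases before to 50 bases after a start site (build GRCm38.p6) were found for 31 of the 36 members and searched on both strands for the 10-letter CArG box, which is CC, then 6 letters each A or T, then GG, and so reads alike on either strand. Actg2, Tagln, Myh11, Nexn and Dtna had no window and are only named. The box was present in 7 of 31 members (22.6%), against 488 of 27025 genes in the table (1.81%). A gene counted if any of its windows held the box. By window it was 7 of 40 (17.5%), against 535 of 32851 (1.63%), and Myl6, Filip1l, Fhl1 and Dmd also have a window without it. By gene length, 2 of 18 members shorter than 50 kb held it, and 5 of 13 members of 50 kb or more, which have more windows per gene. A match is a run of letters and not a shown binding site, and the windows miss elements that lie farther away. The stretches around the box are shown 5′ to 3′ on the gene's strand with the box in capitals. Myl9 encodes the regulatory light chain, Myl6 the essential light chain, Vcl vinculin, Fhl1 a LIM-domain protein of muscle, Dmd dystrophin, Myom1 myomesin and Filip1l a filamin-interacting protein.
Myl9: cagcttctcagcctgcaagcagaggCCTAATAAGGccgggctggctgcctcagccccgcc
Myl6: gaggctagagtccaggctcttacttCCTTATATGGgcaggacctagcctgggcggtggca
Vcl: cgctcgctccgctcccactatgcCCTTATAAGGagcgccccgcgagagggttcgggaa
Filip1l: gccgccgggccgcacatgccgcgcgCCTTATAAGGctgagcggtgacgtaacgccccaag
Myom1: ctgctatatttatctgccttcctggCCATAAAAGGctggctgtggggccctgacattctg
Fhl1: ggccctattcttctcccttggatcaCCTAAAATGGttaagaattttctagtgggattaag
Dmd: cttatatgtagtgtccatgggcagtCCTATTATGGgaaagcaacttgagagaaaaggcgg
The Myl9 stretch lies on chromosome 2 at 156775278-156775337, and its box starts 161 bases before the start site, written -161. The Dmd stretch lies on chromosome X at 82948747-82948806, with the box at -98. Vcl and Filip1l hold the same 10 letters, at -227 and -62 of their start sites.

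Acta2 encodes the alpha actin of smooth muscle and is a textbook example of a gene switched on through CArG boxes. Its window held no exact match. It held 2 runs in which 1 of the 6 middle letters is C or G, at -84 and -34, on chromosome 19 at 34255373-34255482 (minus strand).
Acta2: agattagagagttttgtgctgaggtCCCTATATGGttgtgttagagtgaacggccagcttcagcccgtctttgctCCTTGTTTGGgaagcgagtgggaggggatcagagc
Such runs were present in the windows of 9.69% of the genes in the table and of 6 of 31 members (19.4%).

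The DNp63cKO library held 5528 nuclei and 9859451 unique molecular identifiers (UMIs, each counting 1 captured RNA molecule), and the control library 9062 nuclei and 16063644 UMIs. The median nucleus had 1298 UMIs in DNp63cKO and 1124.5 in control, and 58 cell barcodes occurred in both libraries. After filters, 5188 DNp63cKO and 8438 control nuclei were grouped by their profiles without use of the 36 members, so that the members' own levels did not form the groups. Levels are given as CPM, a gene's share of all UMIs of the class on the customary scale, on which 10000 CPM is 1%. Trp63, the targeted gene, stood at 197 CPM (177 to 219) in urothelium-like nuclei of the DNp63cKO library and at 208 CPM (198 to 219) in those of the control library. No source used here names the exons that were deleted, so UMIs over the whole gene do not check the label. Trp63 was also on the marker list that named the urothelium-like clusters, so its level there is not independent of the naming. The clusters called urothelium-like hold 1027 DNp63cKO and 4132 control nuclei; 3 clusters with 1229 DNp63cKO and 1024 control nuclei stayed unnamed, among them cluster 4, with 1019 of its 1094 nuclei from DNp63cKO and the urothelium list refused by its leading genes. In smooth-muscle-like nuclei Trp63 was lower, at 26.2 CPM (20.5 to 33.0) in DNp63cKO and 68.2 CPM (59.5 to 77.7) in control. Smooth-muscle-like nuclei formed 3 clusters with 1427 nuclei in DNp63cKO and 1895 in control; clusters 2 and 11 were named from markers that are not members, and the name of cluster 1 also rested on members. The 15 striated muscle markers summed to 545 CPM in DNp63cKO and 591 CPM in control there, against 101 and 111 CPM in urothelium-like nuclei. In smooth-muscle-like nuclei they were uneven. Myod1 had 0 and 0.304 CPM, and the fast light chain Mylpf 0.727 and 0.913 CPM, in DNp63cKO and control. Ckm had 90.1 and 97.1 CPM, and Actc1, the cardiac actin, 368 and 379 CPM. When the grouping used the members as well, a cluster led by Myh8 was named striated muscle. It held 175 DNp63cKO and 270 control nuclei.

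The 3 clusters were not alike. Cluster 11, with 540 DNp63cKO and 482 control nuclei, was led by Cpa6, Ryr3 and Cacna2d3 and had the highest level of the myocardin gene Myocd, 1214 and 1201 CPM. Cluster 2, with 353 and 557 nuclei, had genes of dividing cells such as Neil3 and Spag5 among its 10 leading genes, and 640 CPM of Myocd in DNp63cKO and 673 CPM in control. Cluster 1, with 534 and 856 nuclei, had 334 and 309 CPM of Myocd. Its leading genes included Acta2, Myl9, Pcp4, Tagln and Cnn1. The fibroblast and pericyte lists scored higher in cluster 1 than the smooth muscle list and were refused for want of leading genes, a check in which 9 members counted as smooth muscle markers. Cluster 1 also differed in nuclear and cytoplasmic RNA: the nuclear transcript Malat1 had 11113 CPM in DNp63cKO and 7821 CPM in control there, against 23646 and 21441 CPM in cluster 11. Mitochondrial RNA made up 2.65% and 2.92% of cluster 1 UMIs, against 0.405% and 0.518% in cluster 11, and ribosomal protein genes summed to 85433 and 68583 CPM, against 17525 and 17640 CPM. Fibroblast markers summed to 13017 CPM in DNp63cKO and 14938 CPM in control in cluster 1, and haemoglobin genes to 2268 and 1755 CPM. Results are therefore given by cluster as well as pooled.

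The 36 genes together made up 3.78% of all UMIs in smooth-muscle-like nuclei of DNp63cKO and 3.89% in control. In urothelium-like nuclei, which should lack most of them, the share was 0.472% in DNp63cKO and 0.356% in control. Pericyte-like nuclei, the contractile cells around capillaries, held 1.21% and 1.38%, endothelium-like nuclei 0.944% and 0.901%, and fibroblast-like nuclei 0.935% and 0.813%. Glia-like nuclei held 1.36% and 1.01% and macrophage-like nuclei 1.36% and 0.896%, so the share in pericyte-like nuclei was below that of these non-contractile classes in DNp63cKO and above it in control. Of the smooth-muscle-like clusters, cluster 1 was highest at 4.45% in DNp63cKO and 4.36% in control, cluster 11 had 3.53% and 3.76%, and the cluster with dividing cells had 1.88% and 2.19%. The same order held nucleus by nucleus: the median nucleus had 4.20% and 4.37% in cluster 1, 3.50% and 3.84% in cluster 11, and 1.80% and 2.02% in cluster 2. The quartiles of the libraries overlapped in each of these clusters.

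**Figure D1:**
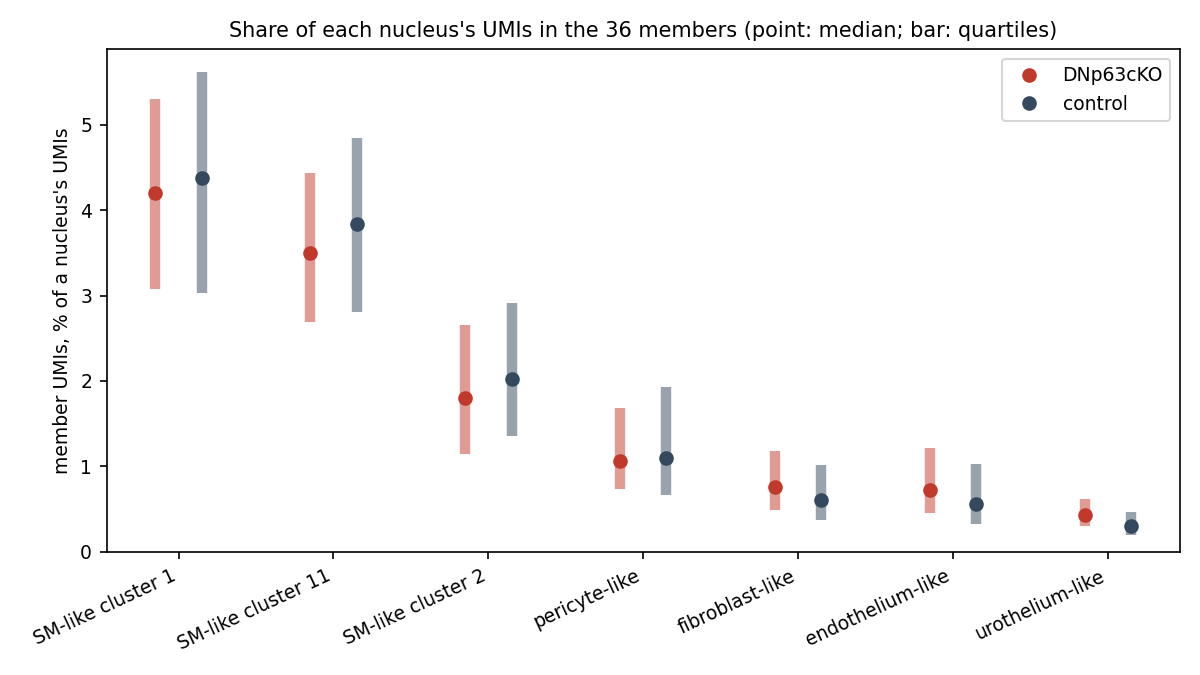
Share of each nucleus's UMIs that came from the 36 member genes, in percent, for 7 groups of nuclei, with DNp63cKO (red) left of control (dark grey); points are medians over nuclei and bars run from the lower to the upper quartile. The 3 smooth-muscle-like (SM-like) clusters stand above the other groups, and within each cluster the DNp63cKO median is a little below the control one while the quartile ranges overlap.

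Most of the members were far higher in smooth-muscle-like than in urothelium-like nuclei. Among 35 members with 20 or more UMIs in DNp63cKO, 30 were at least 4-fold higher in smooth-muscle-like than in urothelium-like nuclei, where 3.82% of the genes measured were. In control 31 of 36 were, against 4.36% of genes. Since members helped to name cluster 1, these counts partly restate the naming. Without cluster 1, an alternative added after the data were seen, 27 of 35 members in DNp63cKO and 31 of 35 in control were past 4-fold, against 4.12% and 4.11% of genes. Members below 4-fold in both libraries were Vcl, Tln1 (talin), Dtna (dystrobrevin) and Sspn (sarcospan). Fhl1 was below it in DNp63cKO and not in control, whereas Sgca (alpha-sarcoglycan), with too few UMIs in the DNp63cKO comparison, was below it in control. Tln1 stood lowest of the measured members in both libraries: 194 CPM in smooth-muscle-like and 129 CPM in urothelium-like nuclei of DNp63cKO, and 221 and 128 CPM in control. Talin works in focal contacts of most cell types. At the other end was Tagln (transgelin, an actin-binding protein of smooth muscle), with 2001 CPM in control smooth-muscle-like nuclei; Tagln exceeded the urothelium-like level by 4.29 on the log2 scale there and by 3.74 in DNp63cKO, where Acta2 came first at 3.77. Short and long members marked the muscle about equally, with medians of 3.09 and 2.92 on the log2 scale in DNp63cKO and 3.25 and 3.26 in control; which of them was higher in control changed with the settings.

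Divided by the kb of annotated exon, Acta2 and Myl9 had the highest levels in smooth-muscle-like nuclei. The order rests on that division: each UMI stands for a molecule whatever its length, the exons of all annotated transcripts are added up, and in CPM alone Mylk and Myh11 come next after Acta2. Acta2 had 2305 CPM per kb in DNp63cKO and 2529 in control, and Myl9 2047 CPM per kb in both. Actg2, the second smooth muscle actin, had 1255 and 1348, Tagln 921 and 1007, Myl6 686 and 655, and the heavy chain Myh11 534 and 503. The lowest levels per kb were those of Sspn, Dtna and Sgca, at 2.51 to 4.08 in DNp63cKO and 4.03 to 6.58 in control. Because introns make up most of the RNA of long genes in nuclei and the sources used here do not describe intron counting, a level per kb of exon is overstated for long genes if intronic reads were counted.

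**Figure D2:**
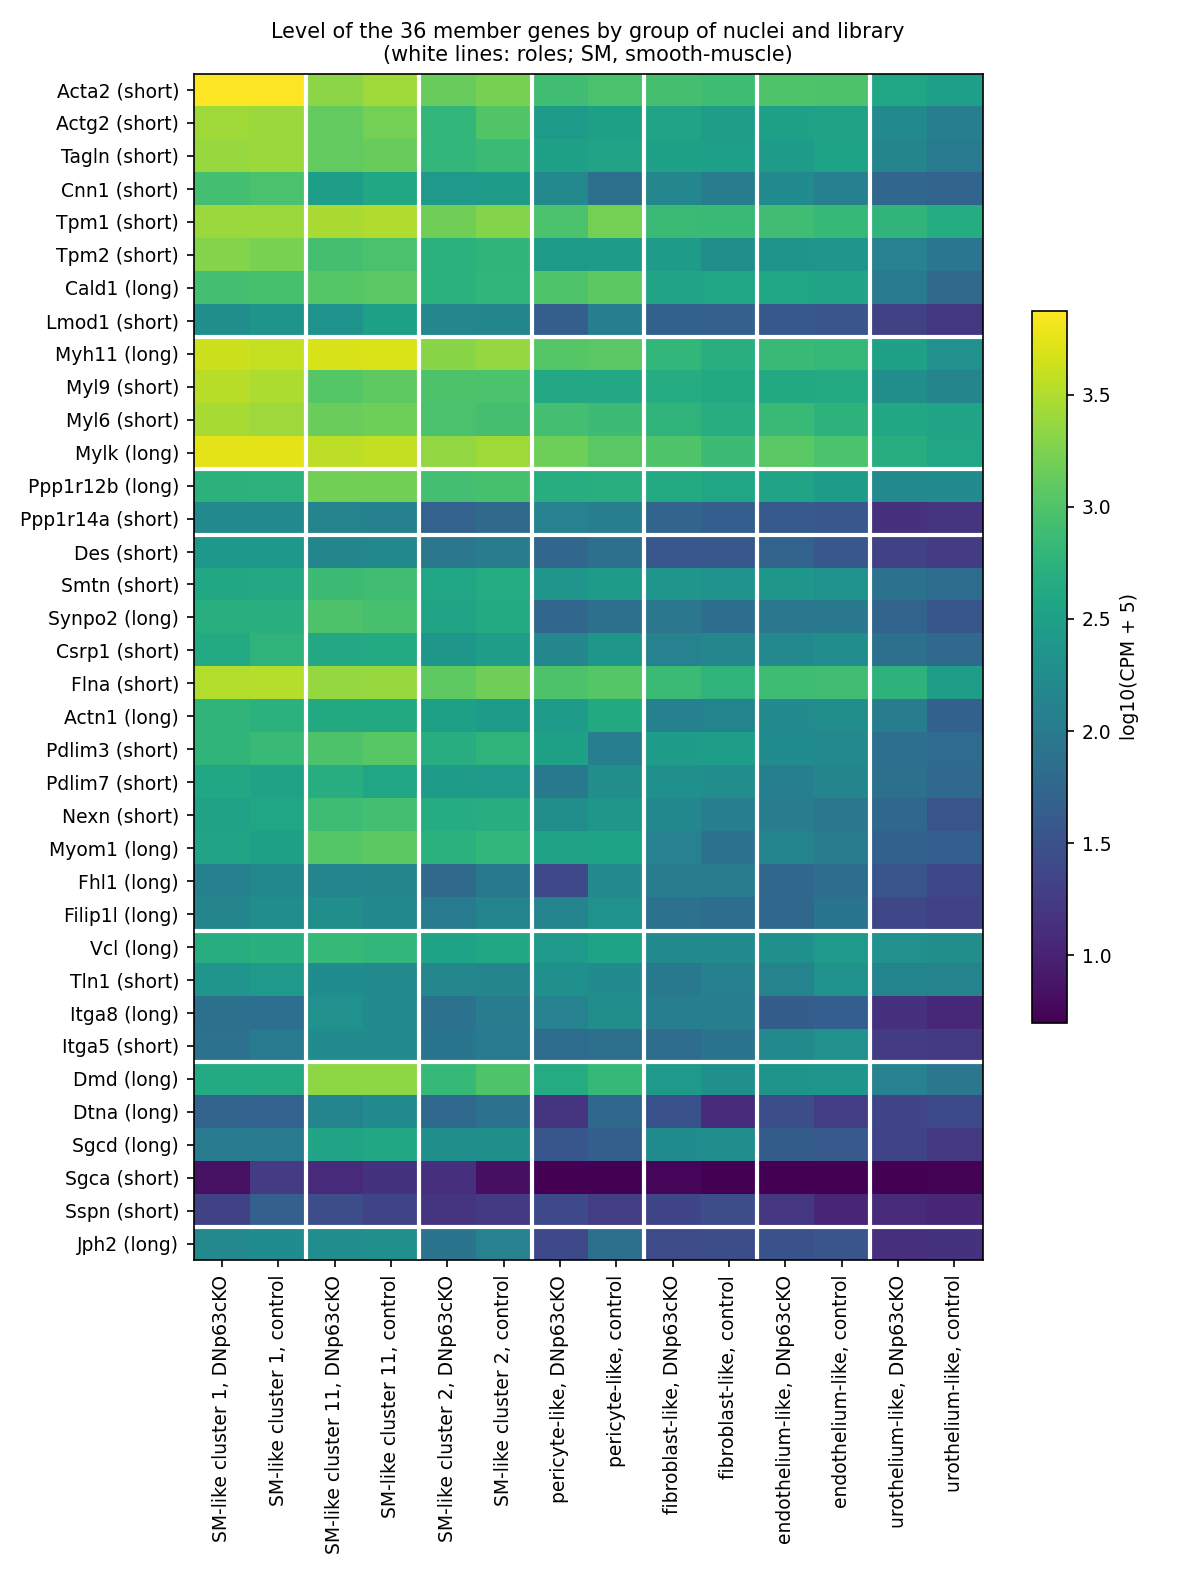
Level of each member as log10(CPM + 5), with members in rows, ordered by role and marked short (under 50 kb) or long, and groups of nuclei in columns, DNp63cKO left of control within each group. Acta2, Myh11 and Mylk are brightest in the smooth-muscle-like (SM-like) clusters, Dmd is brightest in cluster 11, and Sgca and Sspn are dark throughout.

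Detection in single nuclei followed the same pattern. Nuclei were thinned to 700 UMIs each, which left out 251 DNp63cKO and 517 control smooth-muscle-like nuclei. Myh11 then had a UMI in 84.5% (95% Clopper-Pearson interval 82.3 to 86.5) of smooth-muscle-like nuclei in DNp63cKO and in 82.1% (79.9 to 84.1) in control. Of urothelium-like nuclei, 17.9% in DNp63cKO and 12.5% in control had a Myh11 UMI, the background against which the first shares are read. Acta2 reached 78.3% and 79.1% of smooth-muscle-like nuclei, against 21.1% and 16.4% of urothelium-like nuclei. Sgca was seen in 0.595% and 0.435%, against 0 of 892 and 0 of 3434 thinned urothelium-like nuclei, which allows shares of up to 0.336% and 0.0874%. Tln1, in 11.2% and 12.4% against 7.96% and 7.80%, stood little above its background. Over all members the median share was 27.6% in DNp63cKO and 29.0% in control, against 45.1% and 42.1% without thinning, where the order turned round. Without thinning, the shares were 90.5% and 87.6% for Myh11, 84.9% and 84.3% for Acta2, 0.771% and 1.58% for Sgca, and 23.4% and 24.3% for Tln1; in urothelium-like nuclei Myh11 was at 35.8% and 24.7%. The median depth was 1211 and 977 UMIs in smooth-muscle-like nuclei and 1341 and 1280 UMIs in urothelium-like nuclei.

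Nuclei hold unspliced RNA, so long genes can be sampled through their introns, whereas short and abundant messages mostly sit in the cytoplasm. The members were therefore split by the span of the gene in GENCODE M21 (GRCm38): 21 short genes of at most 43.3 kb and 15 long genes of at least 61.6 kb. Myl6 is the shortest at 3.29 kb (chromosome 10, 128490860-128494145). Dmd is the longest at 2257 kb (chromosome X, 82948870-85206141, 98.9% intron). Short members gave 62.8% of all member UMIs in smooth-muscle-like nuclei of DNp63cKO and 64.4% in control. By cluster their share was 68.2% and 68.1% in cluster 1, 55% and 55% in cluster 2, and 50.3% and 52.3% in cluster 11. Cluster 1 and cluster 11 thus held clearly unlike mixtures of the same 36 transcripts in both libraries, while the libraries were close to each other within a cluster.

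Set gene by gene, the contrast of cluster 1 with cluster 11 followed gene length. The pair was picked from the control library: of the smooth-muscle-like clusters, cluster 1 had the highest Acta2 CPM and cluster 11 the highest Dmd CPM. The directions of Acta2 and Dmd in control were thus set by this choice. Both genes also enter the medians and correlations given below. Acta2 had 7473 CPM in cluster 1 and 2100 CPM in cluster 11 of DNp63cKO, and 7271 and 2658 CPM in control, a log2 ratio of 1.83 and 1.45. Myl9 was higher in cluster 1 by 1.61 and 1.32 on the log2 scale, and Cnn1, the actin-binding protein calponin, by 1.51 and 1.25. Dmd went the other way, with 426 CPM in cluster 1 and 2176 CPM in cluster 11 of DNp63cKO and 431 and 2156 CPM in control, a log2 ratio of -2.34 and -2.31. Sgcd, the delta-sarcoglycan gene of 1093 kb, was at -1.85 and -1.99. Of the measured short members, 12 of 20 in DNp63cKO (60%) and 14 of 21 in control (66.7%) were higher in cluster 1, with median log2 ratios of 0.33 and 0.44. Of all short genes measured, 52.8% and 57.4% were. Of the 15 long members, 2 in DNp63cKO and 4 in control were, with medians of -0.49 and -0.36.

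The same slope was present in genes that have nothing to do with contraction. The difference between short and long medians was 0.82 for the members in DNp63cKO and 0.80 in control, against 0.65 and 0.67 over all genes measured. Spearman's rho between span and log2 ratio was -0.68 over 35 members in DNp63cKO and -0.67 over 36 members in control, against -0.49 over 11502 genes and -0.49 over 11729 genes. These correlations are across genes of the same nuclei and only describe them. Other genes under 2 kb had a median log2 ratio of 1.16 in DNp63cKO and 0.89 in control, and other genes of 500 to 1000 kb a median of -1.14 and -1.11. Members departed from this slope in both directions. Mylk, 257 kb long, was higher in cluster 1 by 0.61 and 0.56, and Actn1 (alpha-actinin, 92.8 kb) by 0.49 and 0.30, whereas the short genes Nexn (nexilin, an actin-binding protein) and Itga5 (integrin alpha 5) were lower, at -1.17 and -1.10 in DNp63cKO and -1.19 and -0.76 in control.

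**Figure D3:**
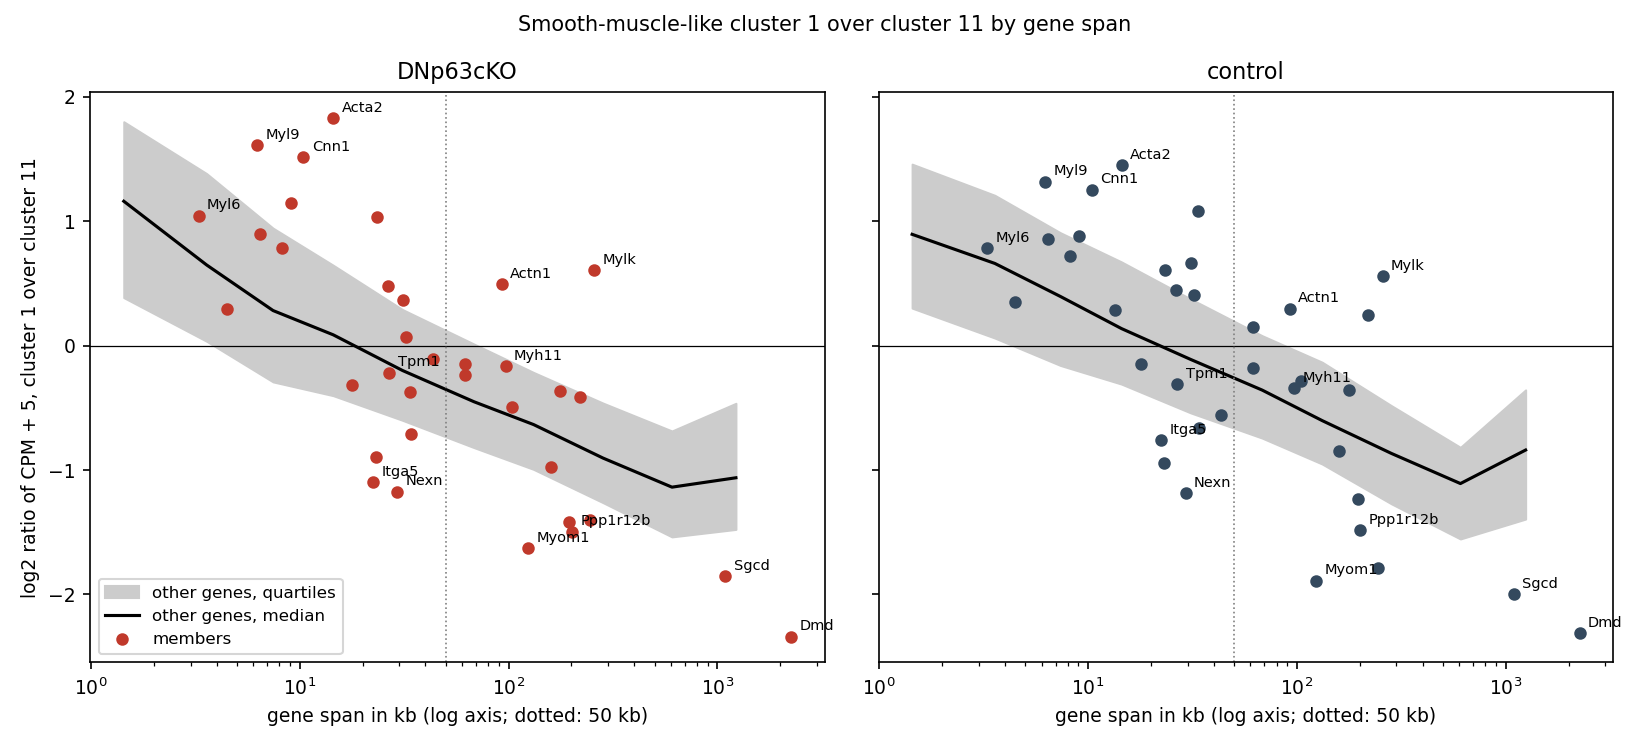
Log2 ratio of CPM + 5 in smooth-muscle-like cluster 1 over cluster 11 (y axis) against gene span in kb (x axis, log scale), with DNp63cKO in the left panel and control in the right; points are members with 20 or more UMIs, the black line is the median of all other genes by span and the grey band their quartiles. Short members such as Myl9 and Acta2 lie above the line, Dmd at -2.34 in DNp63cKO and -2.31 in control lies at the bottom right, and Mylk is the long member farthest above the band.

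Cluster 11 and cluster 2, which share low mitochondrial and ribosomal RNA, differed in another way. Cluster 11 was higher for all 35 members measured in DNp63cKO and all 34 in control. The short members had median log2 ratios of 0.80 and 0.68 there, and the long members 1.07 and 0.82, against -0.12 and -0.12 for all short genes and 0.06 and 0.01 for all long genes. The cluster with dividing cells thus had less member RNA of either length per UMI. Urothelium markers were higher in it, at 4043 CPM in cluster 11 and 8477 CPM in cluster 2 of DNp63cKO and at 4631 and 7153 CPM in control; their part in this difference was not tested.

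Between the libraries the members were close to each other in smooth-muscle-like nuclei. Of the 36, 21 were lower and 15 higher in DNp63cKO, with a median log2 ratio of -0.05, beside 0.01 over 13600 genes. The median's sign was not firm: it was 0.03 without doublet removal and 0.02 with estimated free RNA subtracted. Past 1.5-fold, 2 members were lower, where 2.9% of genes were, and 0 members were higher, where 3.13% of genes were. Counting intervals lay below 0 for 15 members and above 0 for 7 (41.7% and 19.4%), against 11.6% and 11% of all genes, most of which have far fewer UMIs and so wider intervals. These are counts of the pooled class. By cluster, 10 lay below and 8 above 0 of 36 in cluster 1, 10 and 0 of 34 in cluster 2, and 6 and 1 of 35 in cluster 11. The shares over all genes were not counted by cluster.

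Thin filament genes were lower in 7 of 8 cases, with a median log2 ratio of -0.12. Of all 13600 genes measured, 49.2% were lower, with a median of 0.01. Of all 64 genes with 1000 CPM or more in control, 44 were lower (68.8%), with a median of -0.10. These 64 include Acta2, Actg2, Tagln, Tpm1 and Tpm2, so they are not a separate set to compare with. By cluster 5 of 8 thin filament genes were lower in cluster 1, 7 in cluster 2 and 8 in cluster 11. In cluster 1 Acta2 (0.04), Actg2 (0.08) and Tpm2 (0.19) were higher. Acta2 had 5061 CPM (4977 to 5146) in DNp63cKO and 5555 CPM (5474 to 5636) in control, a log2 ratio of -0.13 (-0.17 to -0.10). Tpm1, the alpha-tropomyosin that lies along the actin strand, had 2438 and 2497 CPM, a log2 ratio of -0.03 (-0.08 to 0.01). Among the others the range was -0.26 for Cnn1, with 598 and 718 CPM, to 0.04 for the beta-tropomyosin gene Tpm2, with 1421 and 1380 CPM. The remaining genes of the group are Actg2, Tagln, Cald1 (caldesmon, which restrains actin-myosin contact) and Lmod1 (leiomodin, which nucleates actin filaments).

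Of the 4 genes of the thick filament and its kinase, 1 was lower in the pooled class, 1 in cluster 1, 2 in cluster 2 and 4 in cluster 11. The gene lower in the pooled class and in cluster 1 was the kinase gene Mylk, which was about level in cluster 1 (-0.0014). Myh11 had 4055 CPM in DNp63cKO and 3822 CPM in control, a log2 ratio of 0.09 (0.05 to 0.12); by cluster its ratio was 0.13 (0.08 to 0.17) in cluster 1, -0.17 (-0.29 to -0.05) in cluster 2 and -0.05 (-0.12 to 0.03) in cluster 11. Myl6 had 2186 and 2088 CPM, a ratio of 0.07 (0.02 to 0.12), and Myl9 2379 and 2379 CPM, a ratio of 0.00 (-0.05 to 0.05). The kinase gene Mylk was lower, with 4499 and 4760 CPM and a ratio of -0.08 (-0.12 to -0.05). Of the phosphatase regulators, Ppp1r12b, whose product targets the phosphatase to myosin, had 852 and 776 CPM, a ratio of 0.13 (0.05 to 0.22) in the pooled class. By cluster this did not hold: Ppp1r12b was at -0.02 in cluster 1, -0.10 in cluster 2 and -0.01 in cluster 11, with intervals that spanned 0. Ppp1r14a, which encodes the phosphatase inhibitor CPI-17, had 129 and 131 CPM, a ratio of -0.03 (-0.23 to 0.18). All 6 of these differences are small beside the 1.5-fold mark of 0.58.

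The 12 genes of dense bodies and actin cross-linkers were lower in 6 cases and higher in 6 in the pooled class, and lower in 8, 10 and 9 cases in clusters 1, 2 and 11. Flna, the cross-linker filamin A, had 2655 CPM in DNp63cKO and 2864 CPM in control, a log2 ratio of -0.11 (-0.15 to -0.07). Pdlim3, a PDZ-LIM protein that binds alpha-actinin, had 663 and 749 CPM, a ratio of -0.17 (-0.26 to -0.09). The ends of the range were picked out after their values were seen: Csrp1, a LIM protein of the actin cytoskeleton, had 389 and 502 CPM (-0.36), and Pdlim7, another PDZ-LIM protein, 384 and 324 CPM (0.24). Between them were Des (desmin, the intermediate filament of muscle), Smtn (smoothelin), Synpo2, Actn1, Nexn, Myom1, Fhl1 and Filip1l. Myom1, best known as a cross-linker of the striated M-band, had 570 CPM in DNp63cKO and 510 CPM in control in the pooled class. By cluster its log2 ratio was 0.14 in cluster 1, -0.26 in cluster 2 and -0.12 in cluster 11.

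Dense plaque genes were lower in 3 of 4 cases, as in clusters 1 and 2, and in 1 of 4 in cluster 11. Vcl had 498 CPM in DNp63cKO and 513 CPM in control, a log2 ratio of -0.04 (-0.15 to 0.06), and Tln1 194 and 221 CPM, a ratio of -0.18 (-0.35 to -0.02). The integrin genes had few UMIs, with Itga8 at 102 and 90.4 CPM and Itga5 at 98.1 and 107 CPM, and both intervals spanned 0. Jph2, whose product junctophilin holds the plasma membrane close to the calcium store, had 144 and 165 CPM, a ratio of -0.18 (-0.38 to -0.00094).

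The dystrophin complex held both members past 1.5-fold. Sgca (chromosome 11, 94962791-94976327) had 12 UMIs in DNp63cKO and 34 in control, or 4.36 CPM (2.25 to 7.62) and 10.3 CPM (7.17 to 14.5), a log2 ratio of -0.71 on the CPM + 5 scale. Sspn (chromosome 6, 145931641-145965223) had 47 and 108 UMIs, or 17.1 CPM (12.6 to 22.7) and 32.9 CPM (27.0 to 39.7), a ratio of -0.78. Their intervals, computed without the added 5 CPM, ran from -2.33 to -0.26 and from -1.47 to -0.44. Both are among the scarcest members, and both differences lay mostly in cluster 1: Sgca had 3 and 28 UMIs there and 9.61 CPM or less in the other clusters of either library, and Sspn 26 and 92 UMIs. With each nucleus weighted alike, 0 of 36 members were 1.5-fold lower. Without cluster 1, 0 of 35 were, and Sgca then had fewer than 20 UMIs and was not measured. Each also overlaps a gene on the opposite strand (Hils1 and Sspnos), and no source used here states whether counting used strand, so UMIs of the partners cannot be told apart. The long genes of the complex were higher or level in the pooled class: Dmd had 913 CPM in DNp63cKO and 802 CPM in control, a ratio of 0.19 (0.11 to 0.27), Sgcd 174 and 157 CPM, a ratio of 0.14 (-0.04 to 0.33), and Dtna 69.1 and 68.2 CPM. By cluster this did not hold: Dmd was at -0.02 in cluster 1, -0.55 (-0.76 to -0.36) in cluster 2 and 0.01 in cluster 11, Dtna at 0.05, -0.33 and -0.33, and Sgcd at -0.02, 0.01 and -0.17.

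**Figure D4:**
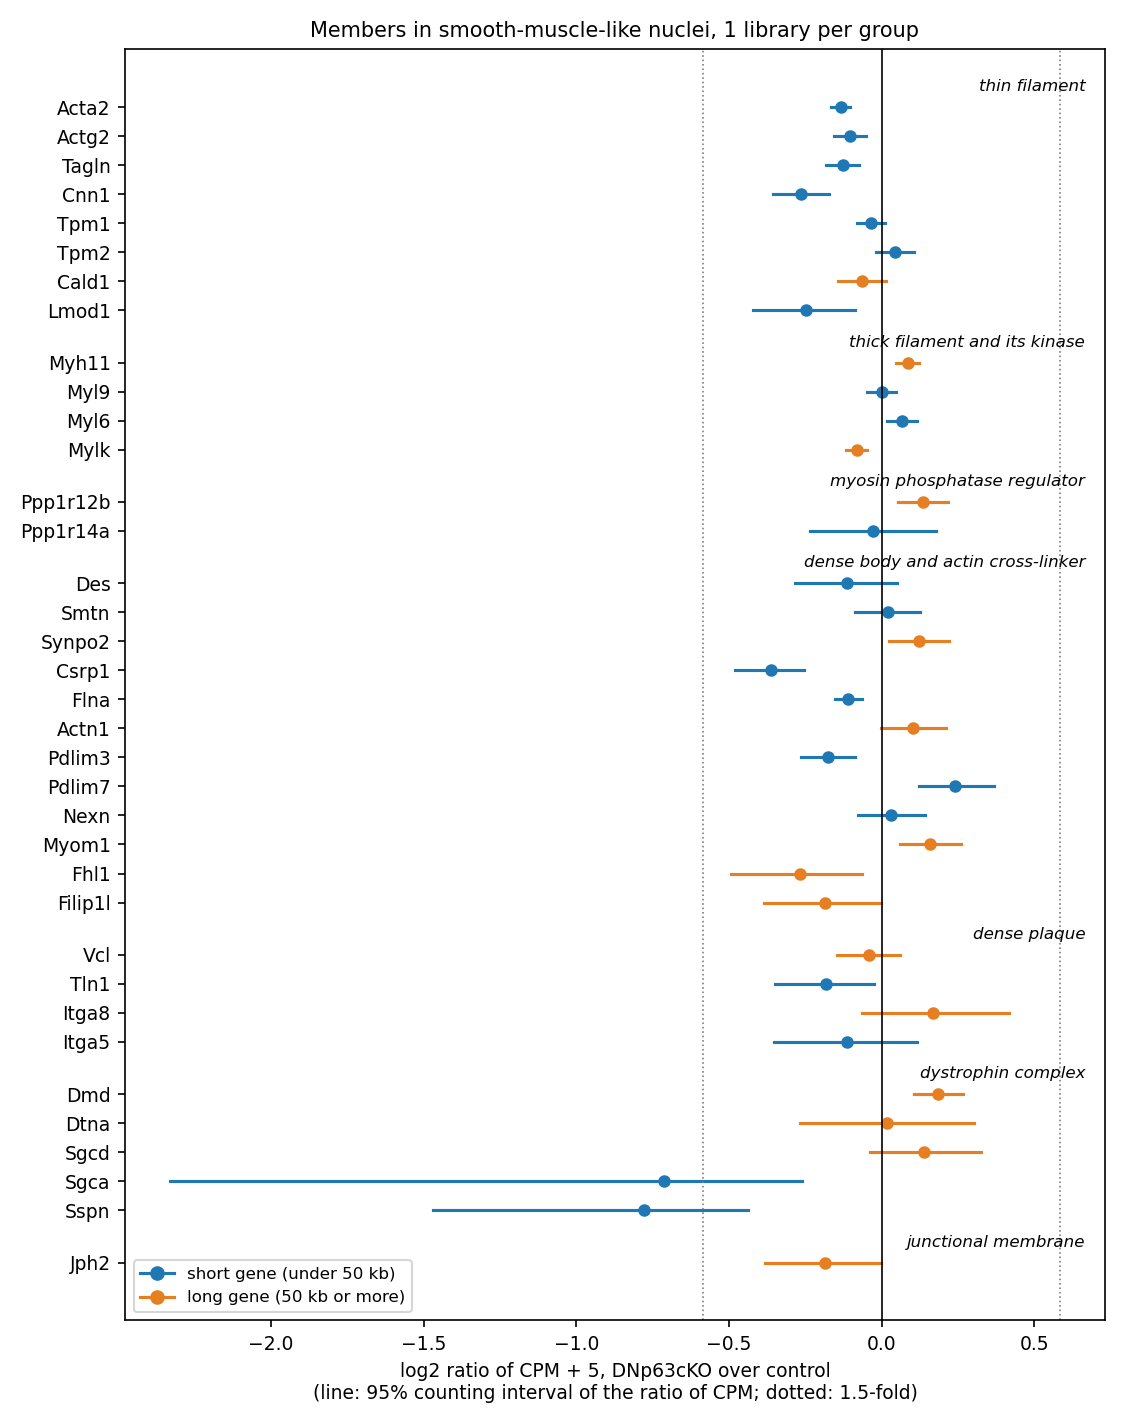
Log2 ratio of CPM + 5, DNp63cKO over control, in smooth-muscle-like nuclei for the 36 members ordered by role; points are ratios, lines the 95% counting interval of the ratio of CPM, blue marks short genes and orange long genes, and dotted lines mark 1.5-fold. Sgca and Sspn are the members beyond a dotted line, and Acta2 at -0.13 and Myh11 at 0.09 have narrow intervals on opposite sides of 0 in this pooled class. Within each cluster, not shown here, both ratios had the same sign, though the Myh11 interval spanned 0 in cluster 11 (-0.12 to 0.03).

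Split by length, short members leaned lower and long members higher in the pooled class. The short members had a median log2 ratio of -0.11, with 15 of 21 lower in DNp63cKO, and the long members 0.09, with 6 of 15 lower. Over all genes measured the medians were -0.01 for 9453 short and 0.04 for 4140 long genes, a smaller tilt in the same direction. Over genes of 200 CPM or more in control, members included, they were -0.06 for 520 short and 0.06 for 299 long genes. Among the members the tilt did not run evenly with length. Members under 30 kb had a median of -0.07 (10 of 16 lower), and all 5 members of 30 to 50 kb (Lmod1, Csrp1, Pdlim3, Tln1 and Sspn) were lower, with a median of -0.25. Members of 50 to 100 kb were at -0.05 (2 of 4 lower), and the 11 members of 100 kb or more at 0.12 (4 lower).

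The tilt was weaker within clusters. In cluster 1 the medians were -0.04 for short and -0.02 for long members, in cluster 2 -0.22 and -0.26, and in cluster 11 -0.08 and -0.03. The mix of clusters differed between the libraries: cluster 1, rich in short transcripts, gave 1580538 of 2751012 smooth-muscle-like UMIs in DNp63cKO and 2186840 of 3285172 in control. Cluster 11, rich in long ones, gave 700024 and 520365 UMIs. Without cluster 1 the difference between short and long medians was -0.06, and without cluster 11 it was -0.03, against -0.20 with all 3 clusters. With the boundary at 30 kb it was -0.02.

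By count, members were lower in DNp63cKO more often within clusters than in the pooled class. Genes of 1000 CPM or more in control, members included, were lower in 63.3% of cases in cluster 11, 62.5% in cluster 2 and 45.5% in cluster 1. Lower values were found for 26 of 35 measured members in cluster 11, beside 49.5% of all genes. The median log2 ratio there was -0.07 beside 0.00 over all genes. Acta2 had 2100 CPM in DNp63cKO and 2658 CPM in control there (-0.34, interval -0.45 to -0.23), and Dmd 2176 and 2156 CPM (0.01, -0.10 to 0.12). In cluster 2, 27 of 34 members were lower, beside 51.2% of all genes, with a median of -0.24 beside -0.01. Actg2 had 636 and 1026 CPM there (-0.69, -0.90 to -0.49), and Dmd 672 and 988 CPM (-0.55, -0.76 to -0.36). In cluster 1, 23 of 36 members were lower, beside 54.4% of all genes, and the median of -0.02 was close to the -0.03 over all genes. Acta2 had 7473 and 7271 CPM there (0.04, 0.01 to 0.07), and Myl6 2909 and 2555 CPM (0.19, 0.13 to 0.24). The urothelium markers, which muscle should lack, also differed between the libraries in the sums given above for clusters 2 and 11; their part in these differences was not tested.

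**Figure D5:**
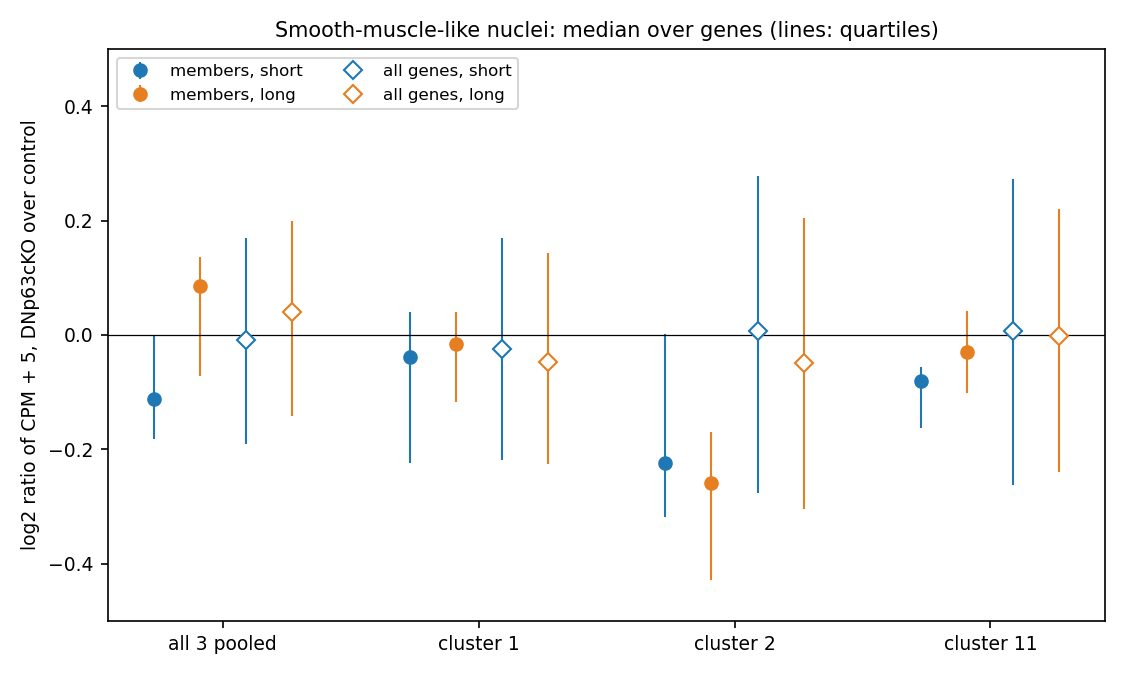
Median log2 ratio of CPM + 5, DNp63cKO over control, for short (blue) and long (orange) genes in all smooth-muscle-like nuclei and in each cluster; filled circles are members, open diamonds all measured genes, and lines run from the lower to the upper quartile over genes. Short and long members stand on opposite sides of 0 in the pooled class, at -0.11 and 0.09, and on the same side in each cluster.

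Outside smooth muscle the members leaned higher in DNp63cKO fibroblast-like nuclei. There 23 of 35 measured members were higher, with a median log2 ratio of 0.10 beside 0.01 over all 11684 genes, of which 6069 were higher. Other values moved with them: fibroblast markers summed to 26901 CPM in DNp63cKO and 36021 CPM in control, Col1a1 to 3982 and 5886 CPM, and Myocd to 178 and 109 CPM. Their part in the result was not tested. Acta2 had 869 CPM in DNp63cKO and 773 CPM in control (0.17, 0.03 to 0.31), Mylk 992 and 745 CPM (0.41, 0.28 to 0.55), and Myom1 124 and 73.6 CPM (0.71, 0.33 to 1.18). These levels lay below those of smooth-muscle-like nuclei, and urothelium-like nuclei also had more member RNA in DNp63cKO, with 471 and 362 CPM of Mylk. The members' median was -0.03 over 33 members in endothelium-like nuclei, where 17 were lower, beside 50.2% of all genes. In pericyte-like nuclei it was -0.18 over 26 members, 20 of them lower, from 77 DNp63cKO and 67 control nuclei. Over all genes measured there it was -0.02, with 51.1% lower. Of 42 genes with 1000 CPM or more in control pericyte-like nuclei, 71.4% were lower, with a median of -0.23. Itga5 was higher in endothelium-like than in smooth-muscle-like nuclei of both libraries, with 161 CPM in DNp63cKO and 197 CPM in control. Itga8 and Sgcd were as high in fibroblast-like nuclei, with Itga8 at 108 CPM in both libraries and Sgcd at 172 and 176 CPM.

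Partners of the apparatus that are not members showed the same small differences in smooth-muscle-like nuclei. Unless a cluster is named, their values are those of the pooled class. Of all 13600 genes measured there, 49.2% were lower in DNp63cKO, with a median log2 ratio of 0.01. Of 19 regulators of actomyosin, 12 were lower and 7 higher in DNp63cKO, with a median log2 ratio of -0.09. Rhoa, the GTPase that raises calcium sensitivity, had 186 CPM in DNp63cKO and 253 CPM in control (-0.43), the non-muscle light chain gene Myl12b 73.4 and 94.1 CPM (-0.34), and Prkg1, the cGMP-dependent kinase of relaxation, 802 and 650 CPM (0.30). Of 30 other actin-binding and dense plaque genes, 21 were lower, with a median of -0.06. The largest differences among them were those of the integrin gene Itgb1, with 524 and 672 CPM (-0.36), of Actn4, with 329 and 421 CPM (-0.35), and of the caveolar coat gene Cavin1, with 220 and 275 CPM (-0.32). In both lists 0 genes were past 1.5-fold.

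Of 10 measured genes of the rest of the dystrophin complex, 7 were lower, with a median log2 ratio of -0.05. The dystroglycan gene Dag1 had 143 CPM in DNp63cKO and 173 CPM in control (-0.26), and Sntb2 165 and 144 CPM (0.19). Regulators of smooth muscle transcription leaned higher in the pooled class, in 11 of 16 measured cases, with a median of 0.07. Of all genes, 6909 of 13600 were higher there. Klf4, which opposes the contractile program, had 17.4 and 31.0 CPM (-0.68, past 1.5-fold), Smad3, a TGF-beta signal carrier, 45.8 and 61.8 CPM (-0.39), and Mef2c 135 and 112 CPM (0.26). Myocd had 610 CPM in DNp63cKO and 514 CPM in control (0.24). By cluster Myocd had 334 and 309 CPM in cluster 1, 640 and 673 CPM in cluster 2, and 1214 and 1201 CPM in cluster 11. The part of the mix of clusters in this lean was not tested. Among 15 short messages that are abundant in cytoplasm, 8 were lower, with a median of -0.02. The ribosomal protein gene Rps29 stood out at 675 and 391 CPM (0.78), followed by Eef1a1 at 3312 and 4179 CPM (-0.33) and Tmsb4x at 1319 and 1630 CPM (-0.30). Of the nuclear transcripts, Malat1 had 19072 CPM in DNp63cKO and 14039 CPM in control (0.44), Neat1 had a ratio of -0.30 and Meg3 one of 0.23.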

How the data were processed

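Nuclei of 2 pools of newborn mouse ureters were sequenced, 1 library per pool, on a microwell platform with barcoded beads. The files deposited by the authors hold raw UMI counts, whole numbers for each gene in each nucleus. The submitters' processing notes list the build mm10, Seurat 4.0.5, R 4.0.5, STAR 2.7.11a and STARsolo without saying what each did. The sources used here do not say which annotation was used, whether strand was used or whether introns were counted. The members, the gene lists, the length boundary and the markers were chosen with earlier results of these data known.

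Nuclei needed 300 or more genes and no more than 5% mitochondrial UMIs. Scrublet's automatic threshold marked 0 nuclei in each library and had not worked, so the highest-scoring 5% of each library were taken out, 303 nuclei of DNp63cKO and 451 of control after ties. Leiden clustering (scanpy 1.11.5, resolution 1, 2000 variable genes without the members, 30 components, 15 neighbours) was followed by naming from marker lists. A name needed a mean log2 marker score over 0.1 and at least 3 markers reaching 50 CPM. A name was refused where another class had more markers among the 10 leading genes. This refusal rule and the exclusion of haemoglobin genes from naming were set after the clusters had been seen. Of the 32589 gene IDs, 32445 were found in GENCODE M21.

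For each library the counts of a class were added up and scaled to CPM of that class. Deeper nuclei weigh more in these sums. Log2 ratios are of CPM + 5, for genes with 20 or more UMIs over both sides. Exact 95% intervals are of 3 kinds: Clopper-Pearson for shares, Poisson for CPM and, for ratios without the added 5, conditional binomial. UMIs of amplified libraries are not fully independent, so intervals cover counting error only. A count of 0 allows up to 3 counts. Members with both libraries' values in the text are those past 1.5-fold, the 3 longest, the 3 shortest and the 2 of each role with most UMIs, and of each pathway list the 3 with the largest ratios among genes with 50 or more UMIs; any other was chosen after its values were seen, and 1 gene that the rule names is not reported here. The interval and fold code was tested on simulated data. Alternatives changed the clustering, doublet removal, nucleus filter, weighting, scaling, pseudocount, count filter, length boundary and free RNA.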

Additional observations from a re-analysis of the deposited data

Results flagged for a closer look

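For 5 members the difference between the libraries ran one way in smooth-muscle-like nuclei and the other way in fibroblast-like nuclei, with counting intervals on opposite sides of 0. The difference was not tested, since there was 1 library per group. The share of all genes that meet the same rule was not computed, so the count of 5 does not set the members apart from other genes. For Cnn1 the log2 ratio, DNp63cKO over control, was 0.44 in fibroblast-like and -0.26 in smooth-muscle-like nuclei, a gap of 0.70. Mylk was at 0.41 and -0.08, a gap of 0.49. Flna was at 0.33 and -0.11 (0.44 apart), Actg2 at 0.29 and -0.10 (0.39 apart), and Acta2 at 0.17 and -0.13 (0.30 apart). The smooth-muscle-like values are those of the pooled class. In its cluster 1, Acta2 (0.04) and Actg2 (0.08) were higher in DNp63cKO, as in fibroblast-like nuclei, and Mylk was level (-0.0014), while Cnn1 (-0.13) and Flna (-0.04) were lower. Mylk, Flna, Actg2 and Acta2 are among the most abundant members, which have the narrowest intervals. Cnn1, with the largest gap, is scarcer. It had 187 UMIs in DNp63cKO and 95 in control in fibroblast-like nuclei, and an interval of 0.09 to 0.82 there. Member RNA made up a larger share of UMIs in DNp63cKO than in control in urothelium-like nuclei as well, 0.472% against 0.356%. The share of free RNA in smooth-muscle-like nuclei, estimated from their uroplakin UMIs, was 34.5% in DNp63cKO and 24.8% in control; its part in these gaps was not tested.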

How the results depend on the processing

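No paired analysis was possible because there was 1 library per group. The median log2 ratio of the members in smooth-muscle-like nuclei, -0.05, was smaller than the typical half-width of a member's counting interval, 0.11, and turned positive without doublet removal (0.0334) and with free RNA subtracted (0.0212). The other 12 alternatives kept its sign, down to -0.11. The count of members 1.5-fold lower, 2, was 0 with the mean over nuclei, 0 without smooth-muscle-like cluster 1 (where Sgca was too scarce to measure) and 1 among members with 100 or more UMIs; 0 members were 1.5-fold higher under all 14 alternatives. The difference between short and long medians in smooth-muscle-like nuclei, -0.20, was negative under all 17 alternatives and shrank to -0.0614 without cluster 1, -0.0284 without cluster 11 and -0.016 with a boundary of 30 kb.

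For smooth-muscle-like over urothelium-like nuclei in control, the difference between short and long medians was -0.01 and had no settled sign. It was 0.14 with the members among the variable genes, 0.15 at resolution 0.5, 0.0208 without doublet removal, 0.12 in nuclei with 1000 or more UMIs, 0.00075 with median-of-ratios scaling, 0.14 for members with 100 or more UMIs, 0.18 without cluster 2, 0.30 without cluster 11, 0.20 at a boundary of 30 kb and 0.11 at 100 kb. It was -0.33 with the mean over nuclei and -0.635 without cluster 1. The difference for cluster 1 over cluster 11, chosen after the data were seen, stayed positive under all 11 alternatives in each library; at a boundary of 100 kb it was 1.58 in DNp63cKO and 1.59 in control, and at 30 kb 1.18 in DNp63cKO. The median share of smooth-muscle-like nuclei with a UMI was 45.1% in DNp63cKO and 42.1% in control without thinning, the reverse of the order after thinning. The causes were not tested. Members with few UMIs, Sgca above all, limit what can be said of single genes, and the difference between pools of mice cannot be told apart from the genotype.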
